A study of Salmo salar with 48 samples.

Results

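The comparison set warm hypoxic Atlantic salmon (Salmo salar) against control fish after 3 days at the final temperature, in liver DNA methylation. Its 16 fish, 8 per group, were taken from the 48 fish of the series by their titles, which carry the treatment and the time. The fish were juveniles of the St. John River strain from commercial brood stock, so the groups share strain, origin, life stage and tissue. Control fish stayed at 12 °C and 100% air saturation. Warm hypoxic fish were brought to 70% air saturation over 1 week, held there for 2 weeks, and then warmed from 12 °C to 20 °C by 1 °C per week at that saturation, and their livers were taken after 3 days at 20 °C. Temperature and oxygen therefore both differed between the groups at sampling, and their shares in a difference cannot be told apart in this pair of groups. Each group came from 2 tanks with 4 fish each, T1 and T6 for warm hypoxic fish and T3 and T4 for controls. The warm hypoxic fish were 5 males and 3 females, the controls 2 males and 6 females. The 4 fish taken from tank T1 at 3 days were all males, and the 4 from T4 were all females.

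DNA methylation in vertebrates is the addition of a methyl group to the cytosine of CpG dinucleotides by DNA methyltransferases. Regions dense in CpGs near active gene starts are usually left unmethylated, while most other CpGs are methylated. TET enzymes start the removal of the mark and need oxygen as a co-substrate. The liver is the main metabolic organ and is made up mostly of hepatocytes. In whole liver, a change in the mix of cells and a change within cells give the same shift in level and cannot be told apart.

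The assay was bisulfite amplicon sequencing. Bisulfite turns unmethylated cytosine into a base read as T, and a CpG's level is the share of its reads, in percent, that kept the C. CpGs with calls in every fish of the series numbered 107 in 7 amplified regions, and 94 of them in 6 regions had at least 30 reads in each of the 16 fish. The regions are named by chromosome. Region ssa03 (chromosome 3, 13688232 to 13688647) holds 16 CpGs in 416 bp, ssa04 (35 Mb) (chromosome 4, 35435825 to 35436217) 18 CpGs in 393 bp, and ssa04 (45 Mb) (chromosome 4, 44947109 to 44947524) 15 CpGs in 416 bp. Region ssa09 (chromosome 9, 121687029 to 121687311) holds 8 CpGs in 283 bp, ssa14 (chromosome 14, 33502562 to 33502977) 14 CpGs in 416 bp, and ssa16 (chromosome 16, 37941696 to 37942102) 23 CpGs in 407 bp. Positions are those of the RefSeq chromosome sequences the files name. The name of the build was not given in the sources used here, and genes and sequence at these positions were not analysed here. Warm hypoxic fish had 2580524 to 4340189 calls in the regions and controls 2337845 to 4481610 (exact permutation p = 0.731, two-sided, on log10 calls, n = 8 each). The lowest number of reads at any tested CpG in any of these fish was 155, at ssa03. Reads are PCR copies and not molecules, so the errors below are the spread between fish.

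At the level of regions, methylation in warm hypoxic liver overlapped that of control liver everywhere. Region ssa09 is the densely methylated one and was slightly higher in warm hypoxic fish, while the intermediate region ssa04 (35 Mb) was lower at every one of its CpGs on average. Neither difference was larger than the spread between fish, and 0 of 6 region means, which is 0%, passed the threshold of an adjusted p under 0.05 in the exact permutation test over all splits of the 16 fish into 8 and 8. All 6 adjusted p-values were 0.804 (Benjamini-Hochberg over regions), and the unadjusted ones lay between 0.149 (ssa09) and 0.804 (ssa14). No region had an unadjusted p under 0.05 in this test or in limma on M-values, in which the smallest adjusted p was 0.593. An M-value is the log2 ratio of methylated to unmethylated calls. With fish weighted by their reads, ssa04 (45 Mb) differed by -0.0904 points (exact permutation p = 0.0382, adjusted p = 0.229).

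**Figure D1:**
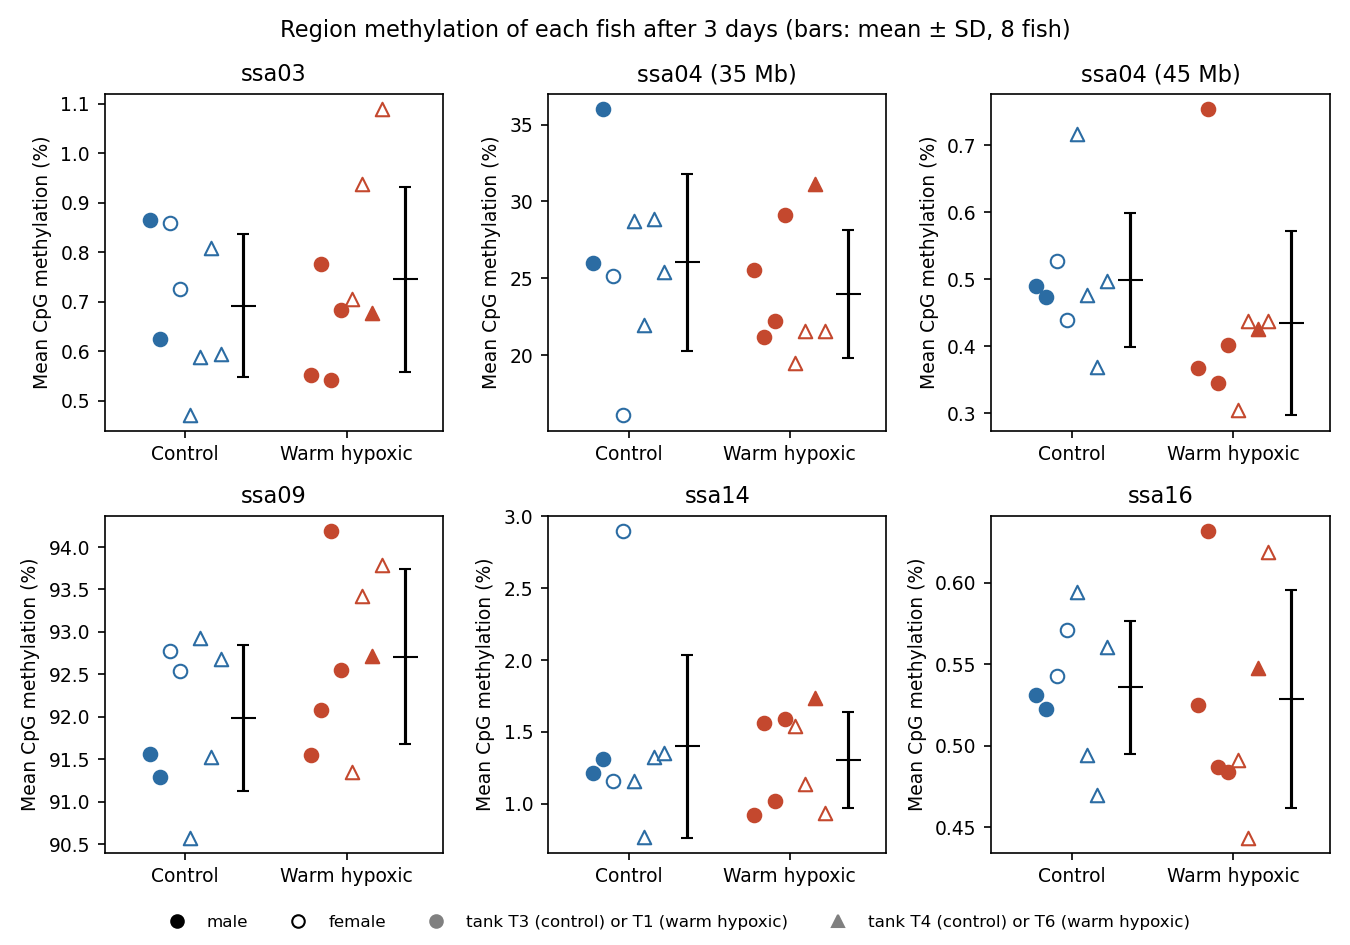
Mean CpG methylation (percent) of each fish at the 6 regions, for control and warm hypoxic fish at 3 days; filled symbols are males, open ones females, circles and triangles the 2 tanks of a group, and bars the mean ± SD of 8 fish. The groups overlap in every panel, and single fish stand far above their group at ssa04 (45 Mb) and ssa14.

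Region ssa09 was nearly fully methylated in all fish. Control fish ranged from 90.6% to 92.9% with a median of 92.0%. Warm hypoxic fish ranged from 91.3% to 94.2% with a median of 92.6%. Warm hypoxic fish 75, 96 and 94 lay above every control fish, and 6 of the 8 lay above the control mean. The means were 92.7% ± 1.03 and 92.0% ± 0.859 (SD, n = 8 each), and warm hypoxic fish were 0.723 percentage points higher (95% interval from -0.293 to 1.76, with exact permutation p = 0.149 and adjusted p = 0.804). The tank means were 92.6% and 92.8% in warm hypoxic tanks T1 and T6, and 92.0% and 91.9% in control tanks T3 and T4. On average 7 of the 8 CpGs were higher in warm hypoxic fish, by 0.551 to 1.12 points, and the CpG at 121687148 was the exception at -0.249 points. CpGs of 1 region are read on the same molecules, and the region mean varied between fish 2.05 times as much as it would if they varied separately. Such a count is thus not 8 separate observations.

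The CpG at 121687082, in ssa09, had the smallest p of all 94. The control fish lay close together there, from 94.8% to 96.0% with a median of 95.8%. The warm hypoxic fish ranged from 95.4% to 97.9% with a median of 96.8%. All warm hypoxic fish but 1 exceeded every control fish, and the remaining one, female 93 of tank T6, had a level within the control range. The means of 96.7% ± 0.823 and 95.6% ± 0.416 (SD, n = 8 each) differed by 1.12 points (95% interval from 0.415 to 1.82, with exact permutation p = 0.00373 and adjusted p = 0.343 over the 94 CpGs). Each of these fish had at least 34739 reads at this CpG. Leaving out fish 93 raised the difference to 1.31 points (exact permutation p = 0.000155, adjusted p = 0.0146). That p is the smallest that 7 fish against 8 can give. It follows from removing the only warm hypoxic fish within the control range. Leaving out any 1 of the 16 fish gave 0.963 to 1.31 points, with exact permutation p-values from 0.000155 to 0.00917. Only the leave-out of fish 93 passed the threshold at this CpG. Weighting fish by their reads gave 1.12 points and an adjusted p of 0.0438 (exact permutation). These weights are PCR copies, and fish 93 had the fewest reads of the 16 fish at this CpG, 34739. The weighted model thus gave the least weight to the warm hypoxic fish within the control range. In limma on M-values the adjusted p was 0.967, and 0.626 when tank entered as a random block. The fit with the block gave the smaller adjusted p here and so was not the more cautious one.

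The same CpG was also read in the other groups. Warm normoxic fish of 3 days, which were warmed at full air saturation, had 96.5% ± 0.757 (SD, n = 8), between warm hypoxic fish and controls of that time. At 4 weeks warm hypoxic fish had 95.5% ± 1.37 and control fish 96.4% ± 0.837 (SD, n = 8 each), so the order of the 2 treatments was the opposite of that at 3 days. The contrast of the treatment differences of the 2 times was -0.81 in M-value (95% interval -1.36 to -0.25) in limma over all 6 groups, with an unadjusted p of 0.00532 and an adjusted p of 0.433, which did not pass. Over the 94 CpGs 0 passed in this contrast and 4 had an unadjusted limma p under 0.05. This CpG and 13688501 of ssa03 are the 2 of those 4 that are also described here for their difference at 3 days. That difference is part of the contrast, and both CpGs were chosen for it. The unadjusted p of 0.00532 and its interval do not allow for this choice, and the match is not separate support.

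**Figure D2:**
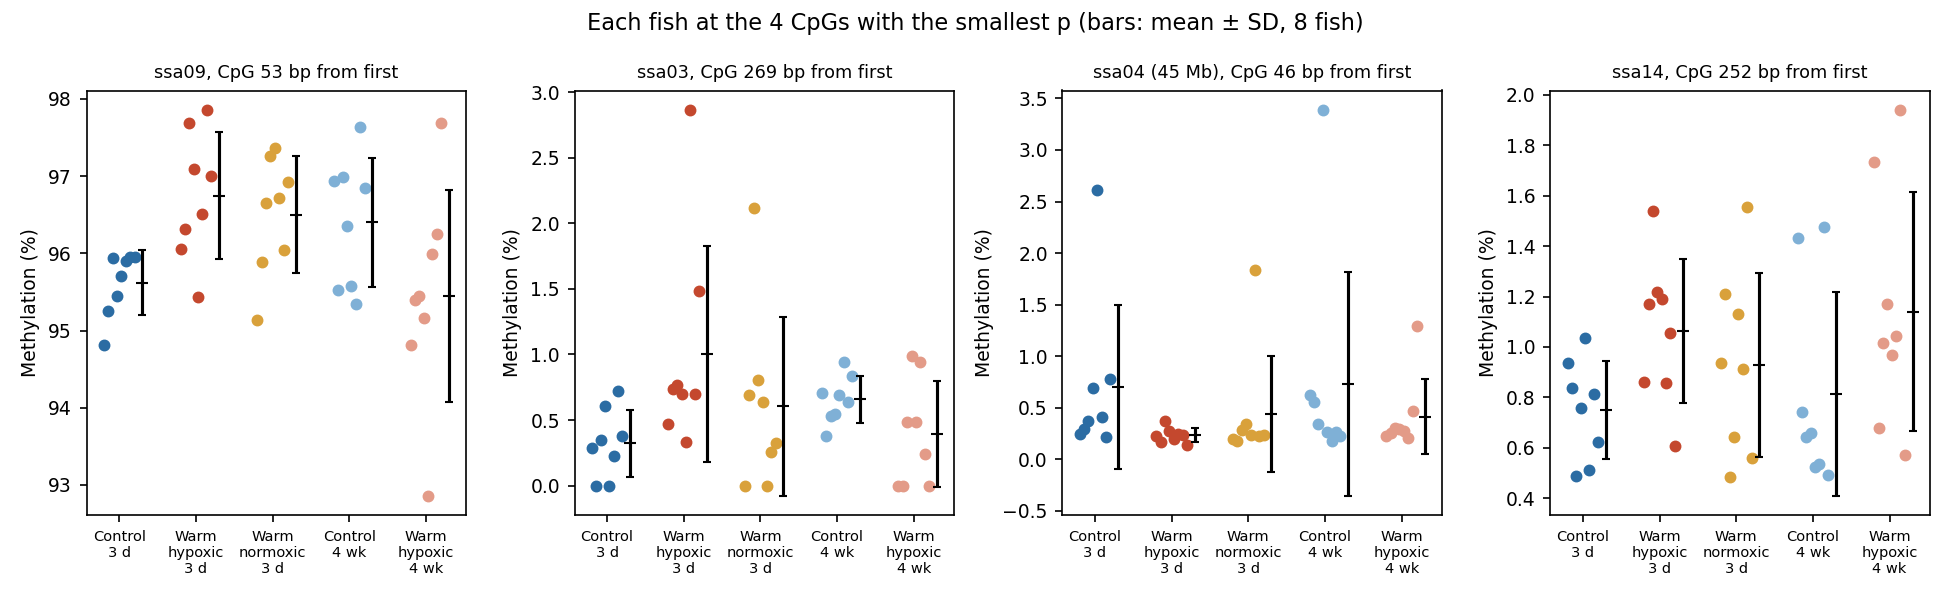
Methylation (percent) of each fish in 5 groups at the 4 CpGs with the smallest p between warm hypoxic and control fish at 3 days; bars are the mean ± SD of 8 fish. At the ssa09 CpG (121687082) 7 of 8 warm hypoxic fish of 3 days lie above all 8 controls of that time, and at 4 weeks the mean of warm hypoxic fish is the lower one.

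The neighbouring CpGs of ssa09 leaned the same way. At 121687029, the first CpG, warm hypoxic fish ranged from 93.0% to 94.9% and controls from 91.1% to 95.1%. Of the control fish, 5 lay below every warm hypoxic fish and 1 above all of them. The difference was 1.02 points (95% interval from 0.0015 to 2.03, with exact permutation p = 0.0496 and adjusted p = 0.586, n = 8 each). At 121687058, the CpG with the highest mean of the region over all 16 fish, warm hypoxic fish ranged from 95.9% to 97.3% and controls from 95.2% to 97.0%, a difference of 0.551 points (exact permutation p = 0.0623, adjusted p = 0.586). The least methylated CpGs of the region, 121687145 and 121687311, had wider spreads. Their means were 86.6% ± 2.42 against 86.0% ± 1.73 and 87.4% ± 2.12 against 86.3% ± 1.66 (warm hypoxic against control, SD, n = 8 each).

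Region ssa04 (35 Mb) had intermediate levels. Control fish ranged from 16.1% to 36.0% with a median of 25.7%, and warm hypoxic fish from 19.5% to 31.1% with a median of 21.9%. The warm hypoxic fish lay inside the range of the controls, and 2 of them, males 76 and 95, lay above the control mean. The means of 24.0% ± 4.17 and 26.0% ± 5.75 (SD, n = 8 each) differed by -2.05 points (95% interval from -7.29 to 3.27, with exact permutation p = 0.429 and adjusted p = 0.804). Relative to the control mean the interval reaches from -28.0% to 12.6%. All 18 CpGs were lower on average in warm hypoxic fish, with differences between -4.62 and -0.170 points. The widest gap was at 35435839, with 24.6% ± 4.19 in warm hypoxic and 29.2% ± 8.05 in control fish (SD, n = 8 each; 95% interval -11.5 to 2.25, exact permutation p = 0.172, adjusted p = 0.751). Without control fish 82 that gap was -2.79 points.

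The CpGs of ssa04 (35 Mb) moved up and down together from fish to fish. The region mean varied 3.52 times as much between fish as separate variation of its CpGs would give. Control male 82 had the highest level of the 16 fish at 16 of the 18 CpGs, and control female 84 the lowest at 11. Among warm hypoxic fish, male 95 was among the 4 highest at 15 CpGs and female 93 among the 4 lowest at 16. The profile along the region kept its shape, with the highest CpG at 35435919 (59.7% ± 5.61 in warm hypoxic and 62.4% ± 6.20 in control fish) and the lowest at 35436037 (1.96% ± 1.03 and 2.21% ± 1.22, SD, n = 8 each). The shared sign of the 18 CpGs is thus not 18 separate observations. Leaving out control fish 82 brought the regional difference to -0.628 points, and leaving out control fish 84 to -3.47 points (exact permutation p = 0.773 and 0.137).

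**Figure D3:**
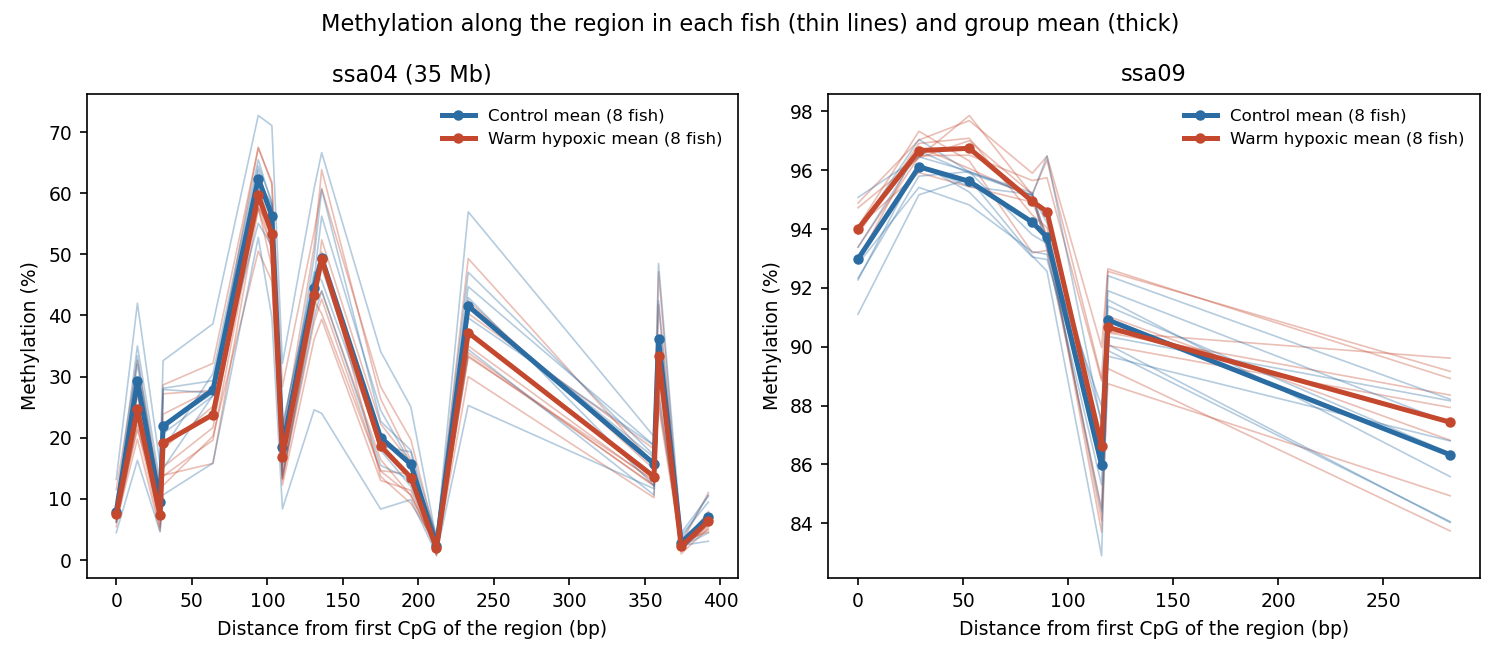
Methylation (percent) along ssa04 (35 Mb) and ssa09 against the distance from the first CpG (bp); thin lines are single fish and thick lines group means of 8 fish. At ssa04 (35 Mb) the fish keep the same profile at different heights and the warm hypoxic mean lies below the control mean at all 18 CpGs; at ssa09 it lies above at 7 of 8.

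At ssa04 (35 Mb) males had the higher mean in both groups at 3 days, and the groups differ in their sexes. Males had 25.8% ± 4.29 (n = 5) and females 20.9% ± 1.21 (n = 3) among warm hypoxic fish, against 31.0% (26.0% and 36.0%, n = 2) and 24.4% ± 4.81 (n = 6) among controls. This order of the sexes did not hold in every group of the series. Among warm hypoxic fish of 4 weeks, males 97 and 120 had 21.9% and 24.1%, and the lowest female, fish 117, had 25.4%. At 3 days warm hypoxic minus control was -5.18 points in males and -3.48 points in females (exact permutation p = 0.286 and 0.202). With sex as a covariate the difference was -4.19 points (exact permutation of treatment within sex, p = 0.0884, adjusted p = 0.330). Leaving out control fish 82 brought it to -2.51 points (exact permutation p = 0.306), and leaving out control fish 84 to -5.15 points (p = 0.0247, adjusted p = 0.148). Leaving out control fish 81 brought it to -5.45 points, with an exact p of 0.0417 that became 0.250 after adjustment. At ssa09 the difference with sex as a covariate was 0.896 points, with 1.19 points in males and 0.683 in females (exact permutation p = 0.110, adjusted p = 0.330). At ssa03 the sexes went opposite ways, with -0.0986 points in males and 0.237 points in females (exact permutation p = 0.333 and 0.107), and whether the effects differ between sexes was not tested. Within the warm hypoxic group all 4 fish taken from tank T1 at 3 days were male and all 3 females came from T6. Only 1 male, fish 95 of T6, shared a tank with females, so sex and tank can hardly be told apart. In that model 0 of the 94 CpGs were called, and unadjusted p-values under 0.05 numbered 8 (exact, permuted within sex). The smallest p that permutation within sex can give is 0.000567. A CpG alone at that p adjusts to 0.0533 over the 94 CpGs, so it could not be called.

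The remaining 4 regions carried little methylation, and their group means lay between 0.434% and 1.40%. At these levels cytosines that escaped conversion add to the signal. The lowest CpG means were 0.233% in warm hypoxic fish, at 44947155, and 0.256% in controls, at 37941770. The part of unconverted cytosines in these levels was not tested.

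Region ssa04 (45 Mb) ranged from 0.305% to 0.754% in warm hypoxic fish with a median of 0.414%, and from 0.369% to 0.716% in controls with a median of 0.483%. Warm hypoxic fish 73, 75 and 93 lay below every control, and 1, male 74, lay above all of them. The means of 0.434% ± 0.138 and 0.499% ± 0.0998 (SD, n = 8 each) differed by -0.0642 points (95% interval from -0.184 to 0.0650, with exact permutation p = 0.322 and adjusted p = 0.804). Male 74 also had the fewest reads of the group there, 6110 per CpG against a group median of 24205, and the part of depth in its level was not tested. Without male 74 the regional mean differed by -0.110 points (exact permutation p = 0.00963, adjusted p = 0.0578), and without control fish 85, the highest control, it was -0.0331 points (p = 0.627).

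Most values at ssa04 (45 Mb) were low and a few were several times higher. The median over CpGs and fish was 0.245% for the warm hypoxic group and 0.277% for controls, but single values reached 2.63% and 2.61%. Of 120 values per group, 12 in warm hypoxic fish (10%) and 18 in controls (15%) were at least 1%, and fish 74 held 5 of the 12. The spread between fish was a median of 8.88 times what counting reads would give. Control fish 85 had 2.61% at 44947155 with the next control at 0.775%, while the 8 warm hypoxic fish lay between 0.142% and 0.369%. At this CpG 5 of the 8 controls exceeded every warm hypoxic fish, and the difference was -0.468 points (95% interval -1.04 to -0.0446, exact permutation p = 0.0113, adjusted p = 0.355, n = 8 each). Without control fish 85 it was -0.196 points.

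At 44947115, the second CpG of that region, warm hypoxic fish lay between 0.165% and 0.417% with a median of 0.207%, and controls between 0.246% and 1.71% with a median of 0.340%. Below every control lay 5 warm hypoxic fish. The difference was -0.464 points (95% interval -0.912 to -0.00803, exact permutation p = 0.0401, adjusted p = 0.586). With sex as a covariate it was -0.650 points (exact permutation within sex, p = 0.000567, adjusted p = 0.0533). That p is the smallest that permutation within sex can give here. Over 94 CpGs a CpG alone at that p adjusts to 0.0533, so it could not pass the threshold in that model. At 44947216 warm hypoxic fish had 0.335% ± 0.274 and controls 0.852% ± 0.672 (SD, n = 8 each), the widest gap of the region at -0.517 points (95% interval -1.07 to 0.0169, exact permutation p = 0.0577, adjusted p = 0.586). Control levels above 1% were present at 4 of the 8 fish there, against 0 warm hypoxic fish.

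Among the 6 tested regions ssa03 had the most uneven depth, from 160 to 21254 reads per CpG in controls and from 271 to 14777 in warm hypoxic fish. Levels ranged from 0.542% to 1.09% in warm hypoxic fish (median 0.695%) and from 0.471% to 0.866% in controls (median 0.675%). Warm hypoxic females 94 and 96 lay above every control. The means of 0.746% ± 0.187 and 0.692% ± 0.145 (SD, n = 8 each) differed by 0.0535 points (95% interval from -0.125 to 0.235, with exact permutation p = 0.537 and adjusted p = 0.804). Leaving out warm hypoxic female 96 brought it to 0.00435 points (exact permutation p = 0.955). The sign of the difference was not the same in deep and shallow fish, and the parts of depth and sex in this were not tested. The 3 warm hypoxic fish with at least 1000 reads per CpG had 0.542% to 0.677%, below the 3 such controls with 0.726% to 0.860%. These 3 warm hypoxic fish were all males and these 3 controls all females, so treatment and sex cannot be told apart among them. The 5 shallower warm hypoxic fish had 0.683% to 1.09% and the 5 shallower controls 0.471% to 0.866%. Weighted by reads, of which the deep fish hold 90.4% in warm hypoxic fish and 95.1% in controls, the difference became -0.233 points (exact permutation p = 0.144, adjusted p = 0.289). Fewer than 100 methylated calls stood behind the region in each of the 10 shallower fish, between 12 and 94, and the depth limit of 1000 was set after the values were seen.

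**Figure D4:**
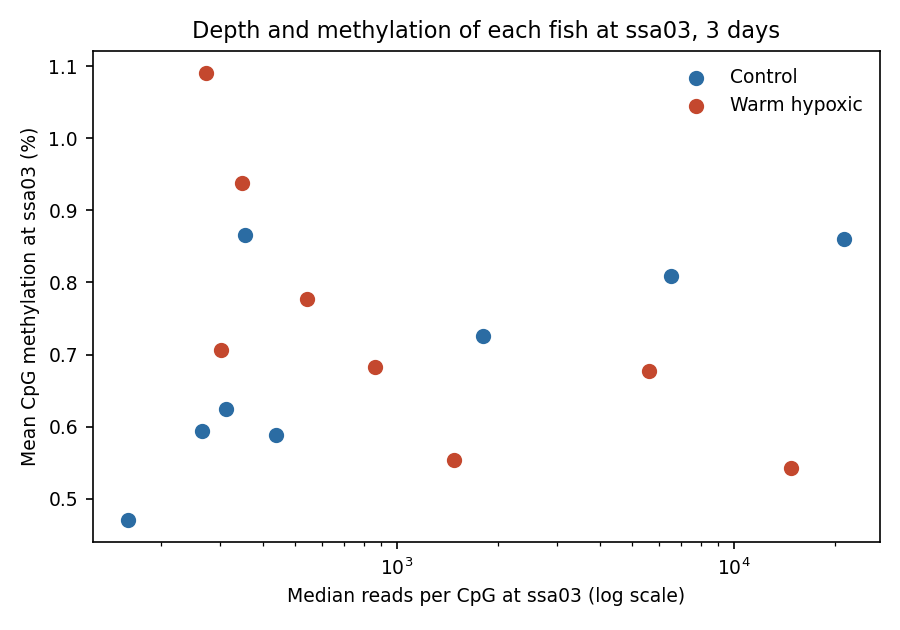
Mean methylation (percent) at ssa03 against the median reads per CpG (log scale) for each of the 16 fish. Right of 1000 reads the 3 warm hypoxic fish, all males, lie below the 3 controls, all females. Left of it the highest fish are warm hypoxic.

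Within ssa03 the CpG at 13688501 had the second smallest p of all CpGs. Warm hypoxic fish ranged from 0.331% to 2.87% with a median of 0.717%, controls from 0% to 0.722% with a median of 0.314%. Above every control lay 4 warm hypoxic fish, and 4 controls lay below every warm hypoxic fish. Those 4 controls had 0% to 0.283% from 159 to 436 reads. The lowest warm hypoxic fish, female 93, had 0.331% from 302 reads. Their order thus rests on few if any methylated calls per fish. The means were 1.01% ± 0.824 and 0.321% ± 0.257, a difference of 0.685 points (95% interval from 0.139 to 1.35, with exact permutation p = 0.00730 and adjusted p = 0.343, n = 8 each). It was 0.330 points with fish weighted by reads, and 0.420 points without female 94, which had 2.87% from 349 reads. The CpG with the highest level of ssa03, at 13688441, had 1.91% ± 0.579 and 1.63% ± 0.774 (SD, n = 8 each).

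Region ssa14 ranged from 0.920% to 1.74% in warm hypoxic fish and from 0.768% to 2.90% in controls. Female 84 was the high control, and the next one had 1.35%. The means of 1.31% ± 0.335 and 1.40% ± 0.634 (SD, n = 8 each) differed by -0.0930 points (95% interval -0.636 to 0.373, exact permutation p = 0.804, adjusted p = 0.804), and without fish 84 by 0.121 points in the other direction (exact permutation p = 0.415). Fish 84 had 13.3% at 33502613, where the next control had 2.69%. The first CpG, 33502562, was the highest of the region in both groups, with 5.15% ± 2.11 and 5.25% ± 2.28 (SD, n = 8 each). At 33502814 warm hypoxic fish lay between 0.608% and 1.54% and controls between 0.489% and 1.03%. There 5 warm hypoxic fish exceeded every control, and the difference was 0.312 points (95% interval 0.0505 to 0.575, exact permutation p = 0.0221, adjusted p = 0.519, n = 8 each).

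Region ssa16, with the most CpGs, had the narrowest interval of the 6 regions in percentage points, though not relative to its level. Warm hypoxic fish lay between 0.444% and 0.632% and controls between 0.469% and 0.595%. The means of 0.529% ± 0.0671 and 0.536% ± 0.0409 (SD, n = 8 each) differed by -0.00723 points, with a 95% interval of -0.0670 to 0.0531 that spans -12.5% to 9.91% of the control mean (exact permutation p = 0.795, adjusted p = 0.804). Its CpGs were split evenly, with 12 higher and 11 lower in warm hypoxic fish. At 37941770 controls lay close together, from 0.172% to 0.335%, and 5 warm hypoxic fish exceeded them all while 1 lay below them all. The difference was 0.199 points (95% interval 0.00731 to 0.390, exact permutation p = 0.0437, adjusted p = 0.586, n = 8 each). At 37942040 warm hypoxic fish were 0.203 points higher (exact permutation p = 0.0539, adjusted p = 0.586), and at 37942071, the widest gap of the region, it was -0.250 points (exact permutation p = 0.0925, adjusted p = 0.751). Without control fish 86, which had 1.39% at 37942071, that gap was -0.142 points. The CpG at 37941956 had the highest level in both groups, 1.12% ± 0.198 and 1.11% ± 0.145 (SD, n = 8 each).

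Over all CpGs, 40 were higher and 54 lower on average in warm hypoxic fish, with a median difference of -0.0572 points. The 18 CpGs of ssa04 (35 Mb), which vary together, are among the lower ones. Of the 94 CpGs 0 passed the threshold, a share of 0%, and 7 had an unadjusted exact p under 0.05, a share of 7.45%. Of these 5 were higher in warm hypoxic fish (5.32%) and 2 lower (2.13%), and at 0 CpGs were the groups without overlap (0%). The limma fits also called 0 CpGs, with 4 at an unadjusted p under 0.05, and 6 when tank entered as a random block. The model weighted by reads called 1 CpG (1.06%), the one at 121687082. The 7 CpGs were spread over 5 regions, with 2 each at ssa09 and ssa04 (45 Mb), 1 each at ssa03, ssa14 and ssa16, and 0 at ssa04 (35 Mb).

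**Figure D5:**
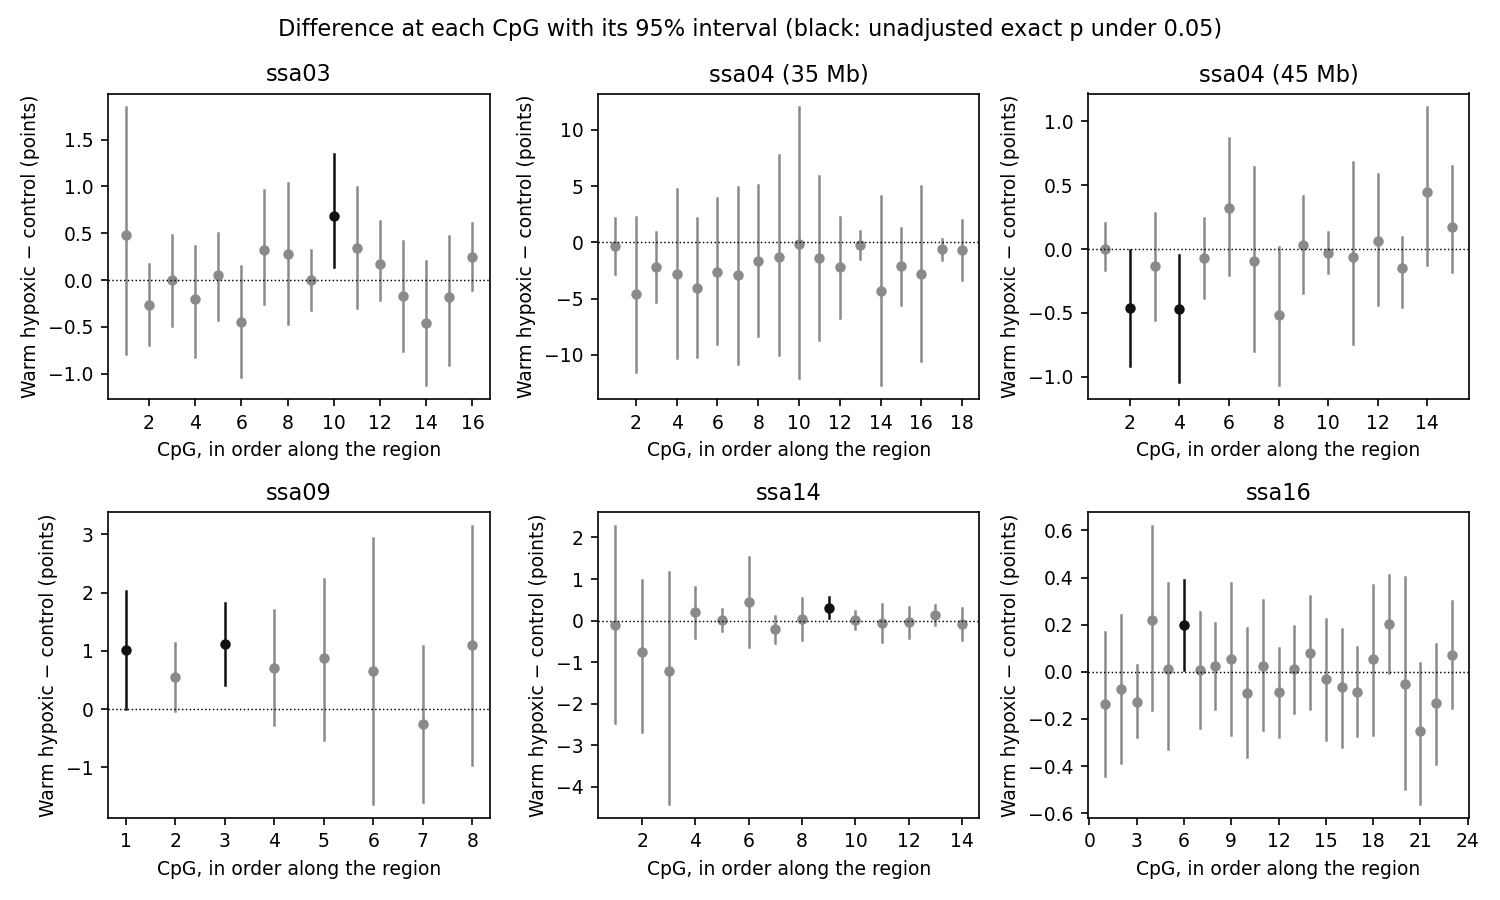
Difference in methylation (percentage points, warm hypoxic minus control) at each of the 94 CpGs, in order along its region, with the 95% interval of shifts that the exact permutation test did not reject; each panel has its own scale. Black marks the 7 CpGs with an unadjusted p under 0.05, and none passed after adjustment.

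A difference in spread between the groups was not detected. The SD of the region mean in warm hypoxic fish was 0.529 times (ssa14) to 1.64 times (ssa16) that of controls, and the smallest exact permutation p for the SD ratio was 0.277 (adjusted p = 0.818). At 39 CpGs the warm hypoxic fish had the larger SD and at 55 the controls. Without control fish 84 the log2 ratio at ssa14 turned to 0.75.

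Tanks gave a coarser view of the same values. In 3 of the 6 regions both warm hypoxic tanks lay on the same side of both control tanks. They lay above at ssa09 and below at ssa04 (35 Mb), with 24.5% and 23.5% against 25.8% and 26.3%. They also lay below at ssa04 (45 Mb), with 0.467% and 0.402% against 0.482% and 0.515%. Random arrangements of the tanks put both tanks of a group on 1 side at a rate of 0.333 per region. At ssa03 the tanks interleaved, with 0.639% and 0.853% in T1 and T6 and 0.769% and 0.615% in T3 and T4. With 2 tanks against 2 the smallest two-sided permutation p is 0.333, so a permutation of tanks could not pass the threshold, and no other test of tank means was run. The exact permutation p-values take fish as units and do not include differences between tanks. The limma fits with tank as a random block use an estimated correlation between fish of a tank. For region means it was -0.046. The unadjusted limma p of ssa09 at 3 days was 0.0989 without the block and 0.0706 with it. The block thus did not make this p more cautious about differences between tanks.

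In limma on M-values the treatment difference at 3 days did not differ past the threshold from that at 4 weeks in any region. The contrast was not tested on levels in percent. At ssa03 the 3 day difference was -0.0659 in M-value but 0.0535 points in percent, so the 2 scales differ in sign there. Over all 6 groups in limma, the contrast of the 2 times had unadjusted p-values from 0.155 (ssa09) to 0.661 (ssa04 (35 Mb)) and a smallest adjusted p of 0.396, with 0 of 6 regions at an unadjusted p under 0.05. Side by side, warm hypoxic and control fish had 92.2% ± 0.916 and 92.5% ± 0.732 at ssa09 after 4 weeks, against 92.7% and 92.0% after 3 days. At ssa03 they had 0.560% ± 0.0948 and 0.812% ± 0.103 after 4 weeks, against 0.746% and 0.692% after 3 days (SD, n = 8 each). In these regions the order of the group means in percent was not the same at both times. In M-value the ssa03 difference was negative at both times, with -0.0659 after 3 days and -0.319 after 4 weeks (limma). At ssa04 (45 Mb) warm hypoxic fish had the lower mean at both times, with 0.428% ± 0.100 and 0.565% ± 0.161 after 4 weeks (limma on M-values, adjusted p = 0.113; 1 of the 6 regions had an unadjusted p under 0.05 at 4 weeks, this one). The highest of these controls at ssa04 (45 Mb), fish 108, had 0.908% from a median of 59 reads per CpG. The next shallowest, fish 110, had 11991 reads. The part of fish 108 in the 4 week difference was not tested. At ssa04 (35 Mb) warm hypoxic fish also had the lower mean at both times, with 26.7% ± 3.12 and 27.6% ± 5.86 after 4 weeks (SD, n = 8 each). The fish of 4 weeks came from the same tanks as those of 3 days. These were T1 and T6 for warm hypoxic fish and T3 and T4 for controls, so the 2 times are not separate repeats. After 4 weeks ssa14 stood at 1.66% ± 0.755 and 1.29% ± 0.223, and ssa16 at 0.555% and 0.519%, higher in warm hypoxic fish, where 3 days had the lower mean in warm hypoxic fish. Warm normoxic fish of 3 days, which share the controls, stood at 91.8% ± 1.87 at ssa09 and 27.7% ± 5.65 at ssa04 (35 Mb) (SD, n = 8 each). Among them fish 77 was the lowest in both regions. It had 87.7% at ssa09, with the next lowest fish at 91.0%, and 16.0% at ssa04 (35 Mb), with the next lowest at 25.4%.

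Region ssa15 (chromosome 15, 46698401 to 46698820, 13 CpGs) was too shallow for a comparison. Only 1 control and 5 warm hypoxic fish reached a median of 30 reads per CpG, and the control median was 7 reads. Over all its CpGs the deepest warm hypoxic fish, male 75, had 1.36% methylated calls (Wilson 95% interval 1.28 to 1.45) and male 95 had 2.16% (1.84 to 2.54). The deepest control, female 84, had 1.98% (1.11 to 3.51). The intervals cover counting error only and treat the calls of a read as independent.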

How the data were processed

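Liver DNA of each fish was bisulfite converted, amplified and sequenced on an Illumina MiSeq, per the labels' protocols. Bismark 0.20.0 with Bowtie2, Trim Galore 0.4.4 and MultiQC 1.9 are listed per the submitters' processing notes. The sources used here give no settings, no build name and no conversion rate. The deposited files hold, per the file headers, whole-number counts of methylated and unmethylated calls per CpG, without normalization.

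A level is 100 times methylated over all calls. CpGs with at least 30 reads in each of the 16 fish were used, and a region is a run of CpGs covered in all 48 fish less than 1000 bp apart. The region mean of a fish is the unweighted mean of its CpGs. Fish were weighted equally. Groups were compared by exact permutation of fish, two-sided, with Benjamini-Hochberg adjustment and a threshold of 0.05, and 95% intervals hold the shifts not rejected. With sex as a covariate, treatment was permuted within sex. The spread was compared after centring each group on its median. M-values, the log2 ratio of both counts after adding 1 to each, were fitted with limma 3.58.1 (R 4.3.3) on the 48 fish of the 6 groups. Python 3.11.15, numpy 2.4.6 and scipy 1.17.1 were used. The tests were checked on simulated data in which CpGs varied separately and tanks and sexes did not differ. The check therefore does not cover CpGs that vary together or differences between tanks.

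The closest 2 fish of a group differed by a chi-square of 43.8 per CpG, so no file was counted as a repeat. That fish are separate animals is taken from the labels. The 13 CpGs of ssa15 were left out of the tests. CpGs named are the 10 with the smallest p, and in each region the one with the largest difference and the one with the highest level; other CpGs named, and fish named, were chosen after their values were seen. The comparison, regions and tests were chosen with earlier results of these data known. The alternatives were coverage minimums of 10 and 100 reads, other CpG sets, reads as weights, limma fits with and without a random tank term, sex as a covariate, leaving out a CpG with a range over 40 points, and leaving out each tank and each fish.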

Additional observations from a re-analysis of the deposited data

Results flagged for a closer look

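The check covered 38 groups of 8 fish, for the region means and the CpGs named for a small p or a large difference. The highest or lowest fish was checked for its gap to the nearest other, and 7 stood apart. Chance gives about 1 in 20 for independent groups that were not chosen. These groups overlap and their CpGs were chosen, so the count does not show an excess over chance. Warm hypoxic fish 74 had 0.754% at ssa04 (45 Mb) with the next at 0.438%, and control fish 85 had 0.716% there with the next at 0.528%. At 44947155 of that region control fish 85 had 2.61% with the next at 0.775%, and at 44947216 warm hypoxic fish 76 had 0.965% with the next at 0.386%. Control fish 84 had 2.90% at ssa14 with the next at 1.35%, and 13.3% at 33502613 with the next at 2.69%. Warm hypoxic fish 94 had 2.87% at 13688501 of ssa03 with the next at 1.49%.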

How the results depend on the processing

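No paired analysis was possible because each fish has its own number and the groups share none. Coverage minimums of 10 and 100 reads and both other CpG sets gave the same 94 CpGs. With reads as weights 1 CpG passed, 2 had an unadjusted p under 0.05 (4 in limma), and ssa03 turned to -0.233 points. In M-value ssa03 was -0.0659 in both limma fits. Without warm hypoxic tank T6, ssa03 was -0.0533, its difference with sex as a covariate -0.106, its log2 SD ratio -0.37 and its contrast of times 0.0280, and the differences with sex as a covariate were 0.00962 at ssa14 and 0.00496 at ssa16. Without T1 the log2 SD ratio of ssa04 (45 Mb) was -0.63. Without control tank T4, ssa03 was -0.0233. Without T3, ssa14 was 0.155 (0.0537 with sex), 33502613 was 0.386, and the log2 SD ratios were 0.35 at ssa04 (35 Mb), -0.0816 at ssa04 (45 Mb), -0.0742 at ssa09 and 0.32 at ssa14. Leaving out control fish 84 and 88, chosen after seeing the data, gave 0.149 at ssa14, 0.00274 at ssa16 and 0.328 at 33502613. Leaving out 1 fish at a time gave 0 to 1 CpGs past the threshold and 4 to 9 with an unadjusted p under 0.05. It moved region means from 0.00435 to 0.0827 at ssa03, from -0.183 to 0.121 at ssa14 and from -0.0220 to 0.00491 at ssa16, and with sex as a covariate from -0.168 to 0.0737 at ssa14 and from -0.0327 to 0.0122 at ssa16. Log2 SD ratios went from -0.10 to 0.60 at ssa03, -0.97 to 1.43 at ssa04 (45 Mb) and -1.04 to 0.75 at ssa14, log10 depth differences from -0.101 to 0.257 at ssa03 and -0.0134 to 0.0614 at ssa04 (35 Mb), and 33502613 from -1.58 to 0.256. The cause was not tested. Depth was not run by tank. With 2 tanks per group, exact p-values over fish leave out differences between tanks, and a p that misses the threshold does not show equal levels.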

Other observations

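Control fish 84, which stood apart at ssa14 and was the lowest of the 16 fish at ssa04 (35 Mb), also had calls outside the amplified regions. It had 4029 calls at 158 CpGs on 6 chromosome sequences, of which 57.2% were methylated, with up to 319 reads at a CpG. Control fish 88 had 49 such calls at 44 CpGs, and each of the other 14 fish had between 0 and 10. Whether these calls bear on its levels within the regions was not tested.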
